A study of Mus musculus with 12 samples.

Results

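The insulin-like growth factor 1 (IGF1) axis was followed in mouse embryonic fibroblasts (MEFs) through 8 genes: the ligand gene Igf1, its receptor gene Igf1r, and the binding-protein genes Igfbp2, Igfbp3, Igfbp4, Igfbp5, Igfbp6 and Igfbp7. They were taken from a fixed list of mouse gene symbols, matched to the Ensembl identifiers of the count files, and all 8 were found among 37991 identifiers and passed the filter on low counts. The study asked by RNA-seq how gene expression in MEFs depends on 3 lysines of E2F1 that become acetylated after DNA damage. Wild-type cells were compared with cells homozygous for the E2f1 3KR allele, in which these lysines are arginines, before and after neocarzinostatin (NCS), a radiomimetic drug that causes DNA double-strand breaks.

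Primary MEFs of the FVB strain, made from 13.5-day embryos and used at passage 3, formed 4 groups of 3 samples: wild-type untreated, wild-type with NCS, 3KR untreated and 3KR with NCS. NCS was given at 250 ng/ml for 3 h. All groups were kept at low oxygen in medium with heat-inactivated fetal bovine serum, which itself carries IGFs and binding proteins. The labels do not say whether samples of a group came from separate embryos, so p-values measure the spread between these samples, which may be technical.

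IGF1 is a secreted growth and survival factor that signals through the receptor tyrosine kinase IGF1R to the PI3K, AKT and MAP kinase pathways. Most IGF outside cells is held by IGF-binding proteins, which lengthen its life and limit or deliver it to the receptor, and proteases that cleave them set it free. Fibroblasts secrete both IGFs and binding proteins, and some binding proteins also act on cells without IGF.

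Levels are given in CPM, counts scaled to a common library size with the trimmed mean of M-values (TMM). Genes were tested with the quasi-likelihood test of edgeR over 15327 genes, with the false discovery rate (FDR) of Benjamini and Hochberg and a threshold of 0.05. Counted reads ranged from 33203757 to 45279321 per sample, and the 8 genes held 1550 to 27435 counts per sample, far above the 3 counts taken as the floor, so depth did not limit any of their values. E2f1 itself was at 30.1 ± 3.51 CPM (SD, n = 3) in untreated wild-type and 29.3 ± 0.248 in untreated 3KR MEFs (edgeR, FDR 0.710), a level that cannot check the label because the allele changes codons only. Wild-type replicate 3 stood apart in both treatments, its chi-square per gene being 7.44 to 9.50 against the other samples of its group where all other pairs had 2.02 to 2.31, and results that rest on it are given without it. Xist was at 0.846 to 1.64 CPM in the 6 wild-type and 799.9 to 933 CPM in the 6 3KR samples, and the Y-linked Ddx3y at 141 to 153 against 0.183 to 0.424, so sex and genotype cannot be told apart in any comparison of the genotypes below. The 10 fibroblast markers, among them collagen genes, summed to 57022 to 62989 CPM in every sample, though each of the 10 differed between the untreated genotypes.

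The genes lie on 6 chromosomes of the GRCm38 build as GENCODE release M21 gives them. Igf1 lies at chr10:87858265-87937042 on the plus strand, and Igf1r at chr7:67952827-68233668 on the plus strand. Igfbp2 (chr1:72824503-72852474, plus strand) and Igfbp5 (chr1:72857932-72874884, minus strand) are neighbours, with their 3′ ends 5457 bp apart. Igfbp3 (chr11:7206086-7213923, minus strand) and Igfbp4 (chr11:99041244-99054392, plus strand) share a chromosome only. Igfbp6 lies at chr15:102144362-102149511 on the plus strand, and Igfbp7 at chr5:77349240-77408041 on the minus strand. Igfbp7 overlaps Polr2b on the opposite strand, which held at most 3924 counts where Igfbp7 held at least 14618, and the strand setting of the counting is not given in the sources used here.

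The bases before the transcription start are shown for Igfbp2, Igfbp3 and Igfbp4, the binding-protein genes whose response to NCS differed between the genotypes. Each run holds the 250 bases before the RefSeq start (GRCm38.p6), 5′ to 3′ on the strand of the gene. Igfbp2 has 2 RefSeq starts, and the start nearest to that of GENCODE was used. The windows are chr1:72824230-72824479 for Igfbp2, chr11:7213924-7214173 for Igfbp3 and chr11:99040994-99041243 for Igfbp4. Capitals mark the GC box GGGCGG, a site for Sp-family factors, and the TATA box TATAAA.
Igfbp2: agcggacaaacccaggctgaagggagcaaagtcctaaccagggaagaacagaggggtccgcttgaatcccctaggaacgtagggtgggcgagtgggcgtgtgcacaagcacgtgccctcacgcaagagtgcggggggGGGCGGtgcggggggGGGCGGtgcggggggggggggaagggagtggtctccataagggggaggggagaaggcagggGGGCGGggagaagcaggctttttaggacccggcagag
Igfbp3: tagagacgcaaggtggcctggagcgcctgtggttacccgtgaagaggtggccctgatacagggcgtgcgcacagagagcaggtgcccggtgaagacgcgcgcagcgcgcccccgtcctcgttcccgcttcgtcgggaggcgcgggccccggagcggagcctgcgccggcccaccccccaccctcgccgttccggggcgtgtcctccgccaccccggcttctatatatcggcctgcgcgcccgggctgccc
Igfbp4: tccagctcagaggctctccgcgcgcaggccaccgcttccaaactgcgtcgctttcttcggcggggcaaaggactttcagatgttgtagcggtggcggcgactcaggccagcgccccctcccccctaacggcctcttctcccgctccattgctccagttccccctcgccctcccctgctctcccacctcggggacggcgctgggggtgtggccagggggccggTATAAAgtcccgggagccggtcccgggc
Igfbp2 had 3 GC boxes, the nearest at bases -37 to -32 before the start. Igfbp4 had a TATA box at bases -28 to -23, and the Igfbp3 window held neither word. GC made up 67.2%, 73.2% and 69.2% of the 3 windows, against a median of 52.4% over 32841 promoters. CpG pairs numbered 14, 32 and 22, against a median of 6. Among the other genes, Igf1r had 2 and Igfbp7 had 4 GC boxes, and 32.7% of all promoters had at least 1. TATAAA, searched on the strand of the gene only, was in 7.59% of promoters. An E2F site, read as TTTCCCGC, TTTCGCGC, TTTGCCGC or TTTGGCGC on either strand, was in the window of 0 of the 8 genes and in 1.86% of all promoters. The half-site of p53 was also in 0 of the 8 and in 7.13% of all. No match says only that these letters are not in these windows, and the RefSeq window of Igf1 lies inside its GENCODE gene, 2846 bases past the first start.

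In untreated MEFs, Igfbp3 and Igfbp4 were higher and Igfbp2 and Igfbp7 lower in 3KR than in wild-type cells, with no overlap between samples. Igfbp3 changed most, by 2.23-fold, and Igfbp4 by 1.65-fold, while Igfbp2 was 1.48-fold and Igfbp7 1.30-fold lower. Igf1, Igf1r and Igfbp5 differed by small amounts that passed the test but lost the call when certain single samples were left out. By edgeR, 3 of the 8 genes were higher and 4 lower at an FDR under 0.05, against 45.7% of all tested genes called in this comparison (22.1% higher and 23.6% lower). Without wild-type replicate 3 in both treatments, 3 were higher and 4 lower, with Igfbp6 in place of Igf1, and calls over all genes went from 7007 to 7593.

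**Figure D1:**
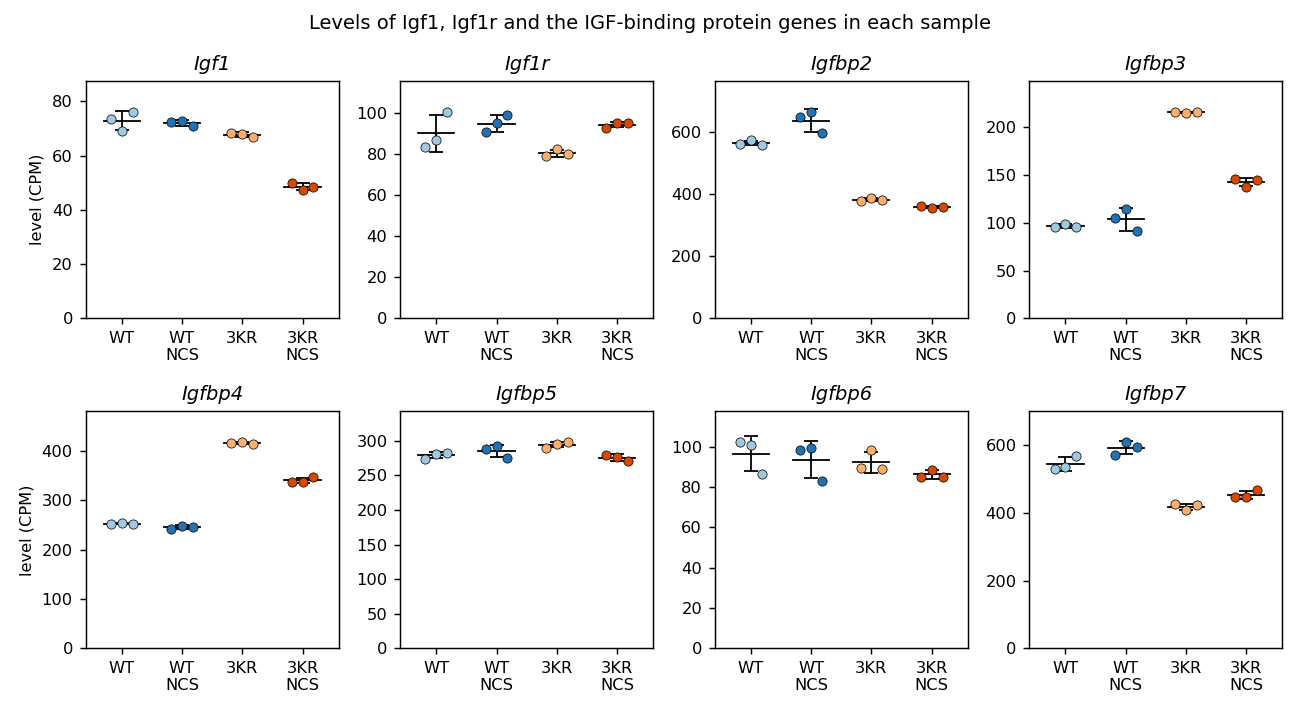
Level in CPM (y axis, from 0) of Igf1, Igf1r and the 6 binding-protein genes in each of the 12 samples, with a panel per gene, the 4 groups on the x axis, points for samples in the order of their numbers, and lines for the mean and SD of 3 samples. Igfbp3 and Igfbp4 stood highest in untreated 3KR MEFs, Igfbp2 and Igfbp7 were lower in all 6 3KR samples than in all 6 wild-type samples, and Igf1 was lowest after NCS in 3KR MEFs.

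Igf1, the ligand, was at 73.5, 69.0 and 76.1 CPM in the 3 untreated wild-type samples. In untreated 3KR MEFs it was at 68.4, 67.8 and 66.7 CPM. All 3KR samples were below all wild-type samples, but the gap between the nearest samples was smaller than the range within wild-type. The log2 fold change was -0.11 ± 0.04 (SE), with an edgeR FDR of 0.0269. The call was lost in 7 of 20 alternatives, and without untreated wild-type replicate 3 the change was -0.08 at an FDR of 0.115.

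Igf1r encodes the receptor tyrosine kinase that IGF1 and IGF2 activate. It was at 83.6, 86.7 and 100.5 CPM in untreated wild-type MEFs and at 78.9, 82.3 and 79.9 CPM in untreated 3KR MEFs. The 3KR samples were all lower, and the highest wild-type sample was replicate 3. The log2 fold change of -0.17 ± 0.05 (FDR 0.00884, edgeR) became -0.08 (FDR 0.0844) when untreated wild-type replicate 3 was left out.

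Igfbp2, a carrier of both IGFs that is abundant in embryonic tissue, was at 559.9, 572 and 558 CPM in untreated wild-type MEFs. In untreated 3KR MEFs it was at 376, 385 and 381 CPM. The ranges were far apart, and the log2 fold change was -0.56 ± 0.03 (edgeR FDR 1.13e-12). Its neighbour Igfbp5, which binds IGFs and extracellular matrix, was at 274, 281 and 283 CPM in wild-type and at 290.2, 296 and 298 CPM in 3KR MEFs. Igfbp5 was thus slightly higher in every 3KR sample, by 0.08 ± 0.03 on the log2 scale (edgeR FDR 0.0462), a call that 10 of 20 alternatives lost. Neither direction nor size was shared by this pair of neighbouring genes.

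Igfbp3 encodes the main IGF carrier of blood plasma, and it is also made by fibroblasts. It was at 95.9, 98.5 and 95.5 CPM in untreated wild-type MEFs and at 216, 215 and 216 CPM in untreated 3KR MEFs. The ranges of the genotypes lay far apart, and the 3KR samples differed little among themselves. Its log2 fold change of 1.16 ± 0.05 (edgeR FDR 4.58e-15) exceeded in size that of 92.7% of the tested genes. Igfbp4, whose protein mostly holds IGF away from the receptor until it is cleaved by pappalysin, was at 251, 253 and 252 CPM in wild-type MEFs. It was at 415, 418 and 413 CPM in 3KR MEFs. The log2 fold change was 0.72 ± 0.03 (edgeR FDR 3.94e-16), and replicates of either genotype differed by far less than the genotypes.

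Igfbp6, a binding protein that prefers IGF2, was at 102, 101 and 86.5 CPM in untreated wild-type MEFs and at 89.4, 98.2 and 88.8 CPM in untreated 3KR MEFs. The ranges overlapped, with wild-type replicate 3 the lowest of all 6. The log2 difference was -0.07, with a 95% interval of -0.21 to 0.07 and an edgeR FDR of 0.386. Without replicate 3 in both wild-type groups it was -0.13, with an FDR of 2.90e-04. Igfbp7, a relative that binds IGFs weakly and is deposited in matrix, was at 529.8, 536 and 569 CPM in wild-type and at 425, 408 and 423 CPM in 3KR MEFs. It was lower in every 3KR sample, with a log2 fold change of -0.38 ± 0.03 (edgeR FDR 1.16e-09).

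Markers of fibroblasts and of other cell types moved with the genotype, in a comparison where 22.1% of all tested genes were higher and 23.6% lower. Of the 10 fibroblast markers, 8 were higher and 2 lower in untreated 3KR MEFs, with Pdgfra at a mean of 125 CPM in wild-type and 397 CPM in 3KR and Lum at 56.9 and 144 CPM. The 13 macrophage markers summed to 117 to 137 CPM in untreated wild-type and 227 to 232 CPM in untreated 3KR MEFs, and 12 of 13 were higher in 3KR. The 9 markers of Schwann cells and neural crest summed to 232 to 238 CPM against 48.5 to 49.3 CPM, and 7 of 9 were lower. Chondrocyte markers summed to 670.2 to 672 CPM against 422 to 439 CPM, a fall carried by Col2a1 (mean 617 and 264 CPM), while of 6 tested 3 were higher (Acan, Comp and Sox9) and 1 lower. Adipocyte markers summed to 45.6 to 47.5 CPM against 119 to 123 CPM, with Lpl at a mean of 13.2 and 82.2 CPM. Of 4 tested adipocyte markers 2 were higher, and Cebpa and Pparg did not pass the test (edgeR FDR 0.913 and 0.454). Endothelial markers summed to 14.7 to 15.2 CPM against 28.5 to 31.3 CPM, with Erg carrying the rise and Tie1 at or under the floor of 3 counts in all samples. Of 6 tested endothelial markers, 1 was higher and 2 lower, and Esam was at a mean of 4.62 and 0.846 CPM. Muscle markers summed to 21.8 to 23.7 CPM against 13.5 to 14.7 CPM, with 2 of 3 tested lower, and epithelial markers to 2.61 to 2.68 CPM against 3.02 to 3.24 CPM, with 2 of 3 tested higher and 1 lower. Myf5, Ckm and Krt5 were at or under the floor in all samples. The part of these cells in the levels of the 8 genes was not tested. In such bulk samples, fewer cells of a type and less RNA per cell cannot be told apart.

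After NCS, Igfbp3 and Igfbp4 remained higher and Igfbp2 and Igfbp7 lower in 3KR MEFs, and Igf1 was now clearly lower. Igf1 was 1.48-fold lower, Igfbp2 1.78-fold lower and Igfbp7 1.31-fold lower, while Igfbp3 was 1.38-fold and Igfbp4 1.38-fold higher. By edgeR, 2 of the 8 genes were higher and 3 lower, against 46.5% of all tested genes (22.9% higher and 23.6% lower). Without wild-type replicate 3 in both treatments, 2 were higher and 5 lower, with Igfbp5 and Igfbp6 added to the lower genes, and calls over all genes went from 7131 to 7735.

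**Figure D2:**
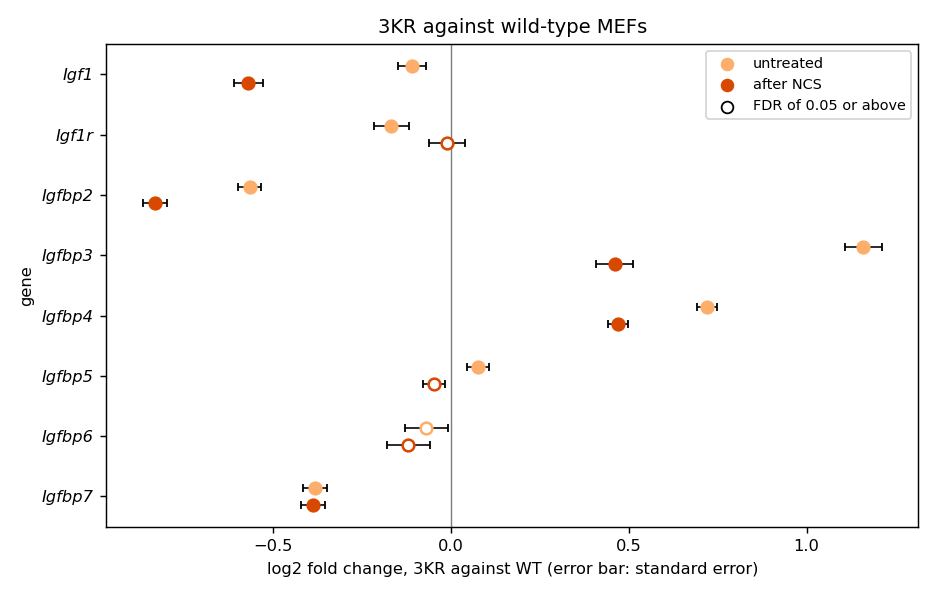
Log2 fold change between genotypes, 3KR over wild-type (x axis), for each gene (y axis), untreated in light and after NCS in dark orange, with bars for the standard error and open circles for an FDR of 0.05 or above. Igfbp3 and Igfbp4 lay to the right in both treatments, at 1.16 and 0.72 before NCS and 0.46 and 0.47 after it, and Igfbp2 and Igfbp7 lay to the left.

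The ligand gene Igf1 was at 72.2, 72.8 and 70.7 CPM in NCS-treated wild-type MEFs and at 49.9, 47.3 and 48.2 CPM in NCS-treated 3KR MEFs. The groups did not overlap, and the log2 fold change was -0.57 ± 0.04 (edgeR FDR 4.04e-11). Its receptor gene Igf1r was at 90.5, 95.2 and 98.9 CPM in wild-type and at 92.8, 94.9 and 95.2 CPM in 3KR MEFs. These ranges overlapped, with a log2 difference of -0.01 and a 95% interval of -0.12 to 0.11 (edgeR FDR 0.898).

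Igfbp2 was at 648, 663 and 594 CPM in NCS-treated wild-type MEFs and at 359, 353 and 359 CPM in NCS-treated 3KR MEFs, a log2 fold change of -0.83 ± 0.03 (edgeR FDR 1.02e-15). Igfbp3 was at 105, 115 and 91.1 CPM in wild-type and 146, 137 and 145 CPM in 3KR MEFs, a change of 0.46 ± 0.05 (edgeR FDR 8.72e-08). Igfbp4 was at 242, 248 and 247 CPM in wild-type and 336, 338 and 346 CPM in 3KR MEFs, a change of 0.47 ± 0.03 (edgeR FDR 1.62e-12). None of these 3 binding-protein genes had overlapping samples, though wild-type replicate 3 was the lowest wild-type sample for Igfbp2 and Igfbp3. Igfbp7 was at 571, 609 and 595 CPM in wild-type and 446, 446 and 466 CPM in 3KR MEFs, with a log2 fold change of -0.39 ± 0.03 (edgeR FDR 1.00e-09).

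For the remaining binding-protein genes the samples of the genotypes overlapped after NCS. Igfbp5 was at 287, 292 and 275 CPM in wild-type and 280.1, 276 and 270.5 CPM in 3KR MEFs, a log2 difference of -0.05 with an interval of -0.12 to 0.02 (edgeR FDR 0.219). Igfbp6 was at 98.3, 99.2 and 83.1 CPM in wild-type and 85.0, 88.6 and 85.0 CPM in 3KR MEFs, a difference of -0.12 with an interval of -0.26 to 0.02 (edgeR FDR 0.116). With the replicate number as a block the Igfbp6 difference was -0.11 (FDR 0.0320). Both were lower in 3KR by the test once wild-type replicate 3 was left out of both treatments, by -0.06 for Igfbp5 and -0.19 for Igfbp6.

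NCS itself raised 2 of the 8 genes in wild-type MEFs, Igfbp2 and Igfbp7, against 26.7% of all tested genes called (14.3% higher and 12.4% lower). The effects were small: Igfbp2 rose 1.13-fold and Igfbp7 1.09-fold. Scaled by library totals in place of TMM, 33.7% of the called genes were higher in this comparison, against 53.5% with TMM. The 6 p53 target genes fixed as a check of NCS, among them Cdkn1a and Mdm2, all rose in both genotypes. All 6 were lower in 3KR than in wild-type MEFs, with a median log2 fold change of -0.77 untreated and -0.54 after NCS. For 2 of the 6 the response to NCS was higher in 3KR MEFs, against 1.86% of all tested genes.

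In wild-type MEFs, Igfbp2 was at 558 to 572 CPM without and 594 to 663 CPM with NCS, without overlap, and its log2 fold change was 0.17 ± 0.03 (edgeR FDR 3.26e-04). Igfbp7 was at 529.8 to 569 CPM without and 571 to 609 CPM with NCS, a change of 0.12 ± 0.03 (edgeR FDR 0.00855) whose groups nearly touched. Without untreated replicate 1 the Igfbp7 change was 0.10 (FDR 0.0563), and without NCS replicate 2 it was 0.10 (FDR 0.0577). Under library totals it was 0.07 (FDR 0.0908). Igfbp3 overlapped between treatments, and its change was 0.10 ± 0.05 (edgeR FDR 0.159). Genotype and replicate number together are called the culture here, though the labels do not say that samples of a number shared a culture. With the culture as a block the Igfbp3 FDR was 0.0266, against 0.131 with the number alone as a block. Without NCS-treated replicate 3 the Igfbp3 change was 0.18 (FDR 7.05e-04).

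Igf1 did not pass the test in wild-type MEFs, with a log2 difference of -0.02 and a 95% interval of -0.11 to 0.07 (edgeR FDR 0.772). For Igf1r the difference was 0.07 and its interval -0.04 to 0.19 (FDR 0.305), and for Igfbp4 it was -0.04 with an interval of -0.10 to 0.03 (FDR 0.360), or -0.09 (FDR 0.0204) under library totals. Igfbp5 had 0.03 with an interval of -0.04 to 0.10 (FDR 0.559), and Igfbp6 had -0.04 with an interval of -0.18 to 0.09 (FDR 0.646). Igfbp4 was lower in every NCS-treated than in every untreated wild-type sample, though it did not pass the main test. The intervals of Igf1 and Igfbp4 did not reach the falls of these genes seen in 3KR MEFs. With wild-type replicate 3 left out of both treatments, 5 of the 8 genes were called, all higher: Igf1r, Igfbp2, Igfbp3, Igfbp5 and Igfbp7. Calls over all genes went from 4090 to 5083 in that fit.

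In 3KR MEFs the response was larger and mostly downward. Igfbp3 fell 1.51-fold, Igf1 1.39-fold and Igfbp4 1.22-fold, while Igf1r rose 1.17-fold. By edgeR, 2 of the 8 genes were higher and 5 lower, against 30.8% of all tested genes called (15.8% higher and 15% lower). Scaled by library totals, 34.4% of the called genes were higher, against 51.2% with TMM. Without wild-type replicate 3 in both treatments, 2 were higher and 6 lower, with Igfbp6 added, and calls over all genes went from 4721 to 6187.

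Igf1 was at 66.7 to 68.4 CPM without and 47.3 to 49.9 CPM with NCS, a log2 fold change of -0.48 ± 0.04 (edgeR FDR 2.78e-09). Igf1r was at 78.9 to 82.3 CPM without and 92.8 to 95.2 CPM with NCS, a rise of 0.23 ± 0.05 (edgeR FDR 0.00108). Ligand and receptor transcripts thus moved in opposite directions, each without overlap between treated and untreated samples.

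Igfbp3 was at 215 to 216 CPM without and 137 to 146 CPM with NCS, a log2 fold change of -0.60 ± 0.05 (edgeR FDR 2.70e-09). It still exceeded every wild-type sample after the fall. Igfbp4 was at 413 to 418 CPM without and 336 to 346 CPM with NCS, a change of -0.29 ± 0.03 (edgeR FDR 2.34e-08). The changes of Igfbp2, at -0.09 ± 0.03 (FDR 0.0391), and Igfbp5, at -0.10 ± 0.03 (FDR 0.0204), were near the threshold. Igfbp2 lost its call when any of the 6 3KR samples was left out, and Igfbp5 with 4 of them left out in turn. Igfbp7 rose by 0.11 ± 0.03 (edgeR FDR 0.0110), but without untreated 3KR replicate 2 or NCS-treated 3KR replicate 3 its FDR was 0.0717 or 0.0807. With either of these samples left out, 4 of the 8 genes were called, namely Igf1, Igf1r, Igfbp3 and Igfbp4. Under library totals the Igfbp7 change was 0.07 (FDR 0.105). For Igfbp6 the difference was -0.10, with a 95% interval of -0.24 to 0.04 (edgeR FDR 0.255), but its FDR was 0.00869 with the culture as a block. Igfbp6 did not overlap either, at 88.8 to 98.2 CPM without and 85.0 to 88.6 CPM with NCS, so lack of overlap was not limited to called genes.

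Some markers of other cell types were also called with NCS in 3KR MEFs, where 15% of all tested genes were lower and 15.8% higher. Macrophage markers summed to 207 to 211 CPM with NCS, and 2 of 13 fell, those of Schwann cells and neural crest summed to 42.3 to 43.6 CPM, and 3 of 9 fell, and those of endothelium summed to 18.4 to 19.7 CPM. The macrophage count was near the share of all tested genes that fell. Of 6 tested endothelial markers, 1 fell. Of the 10 fibroblast markers, 6 fell and 1 rose. Their part in the changes of the 8 genes was not tested.

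The response to NCS differed between the genotypes for 4 of the 8 genes, Igf1, Igfbp2, Igfbp3 and Igfbp4, against 3.73% of all tested genes called for this difference (572 of 15327), with 1.87% of tested genes lower in 3KR. In each of the 4 cases the response of 3KR MEFs was the lower. Leaving wild-type replicate 3 out of both treatments gave 5 of 8, with Igfbp5 added, where 1842 genes were called in all. Of the 10 fibroblast markers, 5 also had a lower response in 3KR and 0 a higher one, among them Lum and Col3a1, with a median log2 difference of -0.10. NCS had raised 5 and lowered 1 of these 10 markers in wild-type cells, against 14.3% higher and 12.4% lower among all tested genes. Their part in the differences of the 8 genes was not tested.

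**Figure D3:**
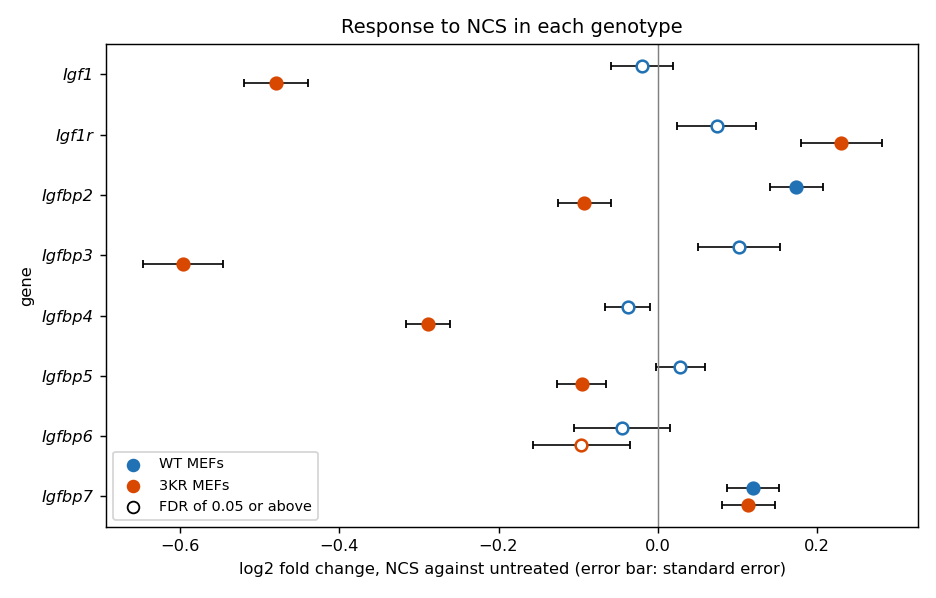
Log2 fold change of NCS against no treatment (x axis) for each gene (y axis) in wild-type (blue) and 3KR MEFs (orange), with bars for the standard error and open circles for an FDR of 0.05 or above. Igf1, Igfbp3 and Igfbp4 lay near 0 in wild-type and at -0.48, -0.60 and -0.29 in 3KR MEFs, and the points of Igfbp7 lay together.

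The difference of the log2 fold changes, 3KR minus wild-type, was largest for Igfbp3, at -0.70 ± 0.07 (edgeR FDR 2.00e-06). For Igf1 it was -0.46 ± 0.06 (FDR 2.14e-05), and the alternatives ranged from -0.50 to -0.42. For Igfbp2 it was -0.27 ± 0.05 (FDR 0.00130), where wild-type cells rose and 3KR cells fell slightly, and for Igfbp4 it was -0.25 ± 0.04 (FDR 3.76e-04). All 4 calls held in each of the 20 alternatives, including each sample left out in turn. For Igfbp3 and Igfbp4 the genotypes thus stood nearer to each other after the drug, at log2 differences of 0.46 and 0.47 in place of 1.16 and 0.72. For Igf1 and Igfbp2 they stood further apart, at -0.57 and -0.83 in place of -0.11 and -0.56.

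For Igf1r the difference of 0.16 ± 0.07 had a 95% interval of -0.01 to 0.32 and an FDR of 0.268 by edgeR. For Igfbp5 it was -0.12, with an interval of -0.22 to -0.02 and an FDR of 0.126. With the culture as a block both passed the test, at an FDR of 0.0179 for Igf1r and 0.0233 for Igfbp5, where 1379 of all genes were called in place of 572. The Igfbp5 FDR was also 0.0338 without untreated and 0.0361 without NCS-treated wild-type replicate 3. For Igfbp6 it was -0.05, with an interval of -0.25 to 0.15, and for Igfbp7 -0.01, with an interval of -0.11 to 0.10. The genotype comparisons and the treatment comparisons share samples, so a low or high untreated group enters both.

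Levels of different genes were set side by side per kb of exon, using the union of exons of each gene. In untreated wild-type MEFs Igfbp7 was highest, at 451 CPM per kb, followed by Igfbp2 at 305, Igfbp6 at 86.7, Igfbp4 at 57.1, Igfbp5 at 46.5, Igfbp3 at 30.9, Igf1 at 7.36 and Igf1r at 5.38 CPM per kb. No neighbours in this order overlapped between samples, and the order was the same after NCS. In untreated 3KR MEFs Igfbp4 at 94.0 CPM per kb stood above Igfbp6 at 82.8, and Igfbp3 at 68.9 above Igfbp5 at 49.1. After NCS in 3KR MEFs, Igfbp6 (77.5) and Igfbp4 (77.0) overlapped, as did Igfbp5 (45.9) and Igfbp3 (45.6). There Igf1, at 4.90 CPM per kb, was below Igf1r, at 5.62 CPM per kb, without overlap. Each of the 6 binding-protein genes therefore stood above Igf1 in all 4 groups, per kb of exon. The other ligand gene, Igf2, was not set beside them on this scale.

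The sum over the 6 binding-protein genes was 977 ± 9.63 CPM per kb (SD, n = 3) in untreated wild-type and 847 ± 0.713 in untreated 3KR MEFs. After NCS it was 1054 ± 37.1 in wild-type and 814 ± 10.9 CPM per kb in 3KR MEFs. The makeup shifted with the genotype: Igfbp3 made up 3.16% of the sum in untreated wild-type and 8.14% in untreated 3KR MEFs, and Igfbp4 5.85% and 11.1%. Igfbp2 made up 31.2% in wild-type and 24.3% in 3KR MEFs, and Igfbp7 46.1% and 40.9%. After NCS the share of Igfbp3 was 3.14% in wild-type and 5.60% in 3KR MEFs. These sums are of transcripts and were not tested.

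**Figure D4:**
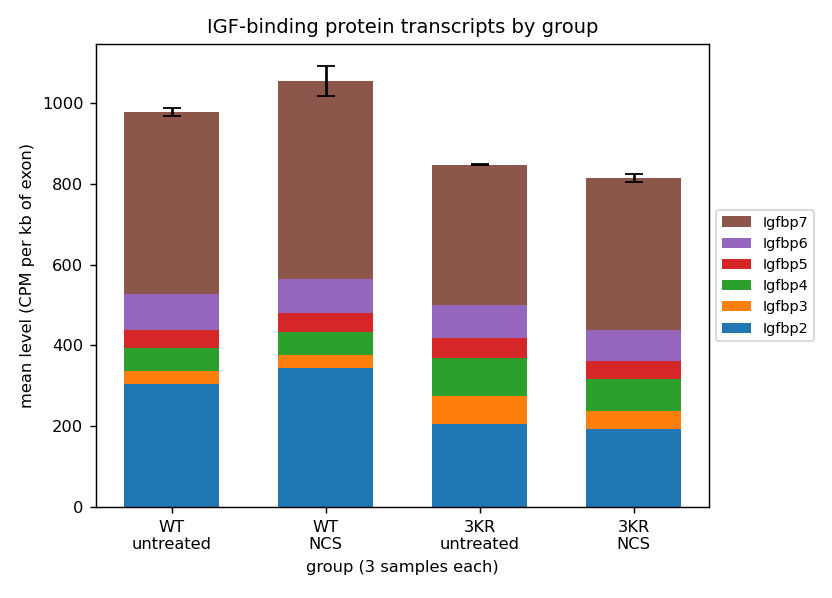
Mean level in CPM per kb of exon (y axis, from 0) of the 6 binding-protein genes stacked for each group (x axis, 3 samples each), with bars for the SD of the sum. The sum was 977 and 1054 CPM per kb in wild-type and 847 and 814 in 3KR MEFs, and the Igfbp3 and Igfbp4 layers were thickest in untreated 3KR MEFs.

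Around these genes, 48 further genes of the IGF axis were followed as listed by role, and 42 were tested. Between the untreated genotypes 14 were higher and 17 lower in 3KR, and after NCS 12 were higher and 17 lower. NCS raised 14 and lowered 5 in wild-type MEFs, and raised 12 and lowered 12 in 3KR MEFs. In all 31, 29, 19 and 24 of the 42 were thus called in these 4 comparisons, against 45.7%, 46.5%, 26.7% and 30.8% of all tested genes. The median log2 fold changes of the list ran from -0.06 to 0.05 over these 4 comparisons, against at most 0.01 in size for all tested genes. The median size of change between genotypes was 0.210 untreated and 0.204 after NCS, against 0.183 and 0.189 for all tested genes. With NCS it was smaller than for all tested genes, at 0.102 against 0.126 in wild-type and 0.117 against 0.141 in 3KR MEFs. Without wild-type replicate 3 in both treatments, the counts were 15 and 17, 12 and 17, 19 and 8, and 15 and 14. Igfbp1, Ins1 and Ins2 had 0 counts in all 12 samples, which allows up to 0.0663 to 0.0904 CPM, and Insrr, Igfals and Irs4 had at most 8, so the IGF ligands detected were Igf1 and Igf2.

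Igf2, the growth factor of the embryo and the second IGF1R ligand, was at 1406, 1393 and 1454 CPM in untreated wild-type and 839, 824 and 835 CPM in untreated 3KR MEFs. It was thus lower in every 3KR sample, by 0.77 ± 0.03 on the log2 scale (edgeR FDR 2.19e-17), and after NCS the change was -0.95 ± 0.03 (edgeR FDR 5.21e-19). Igf2r, which clears IGF2 from the cell surface, rose with NCS in wild-type MEFs by 0.30 ± 0.03 (edgeR FDR 2.42e-07). In 3KR MEFs Igf2r was also higher with NCS, at 383 to 397 CPM without and 449 to 459 CPM with it. Insr, the insulin receptor gene, fell with NCS by 0.24 in wild-type and 0.30 in 3KR MEFs (edgeR FDR 0.00422 and 5.28e-04). Igfbpl1, a binding-protein relative, had 26 counts or fewer in every sample. It was still lower by the test in 3KR MEFs, with log2 fold changes of -2.41 untreated and -2.80 after NCS. Untreated wild-type samples held 16 to 25 counts and untreated 3KR samples 3 to 4, which is at or near the floor.

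Of 7 genes for proteases that cleave binding proteins and for their inhibitors, 5 were higher and 1 lower in untreated 3KR MEFs, and 5 were higher and 1 lower after NCS. Among all tested genes 22.1% were higher and 23.6% lower untreated, and 22.9% higher and 23.6% lower after NCS. Pappa2, a protease of IGFBP3 and IGFBP5, was at 13.2, 14.7 and 15.7 CPM in untreated wild-type and at 30.6, 30.2 and 30.1 CPM in untreated 3KR MEFs. Its log2 fold change was 1.07 ± 0.06 (edgeR FDR 6.29e-13). Pappa, the pappalysin that cleaves IGFBP4, went the other way, at 327, 327 and 384 CPM in wild-type and 245, 238 and 251 CPM in 3KR MEFs. Its log2 fold change was -0.50 ± 0.04 (edgeR FDR 1.77e-09). So in untreated 3KR MEFs the IGFBP4 transcript was higher and that of its protease lower.

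Stc1, an inhibitor of pappalysins, was 0.91 higher on the log2 scale in NCS-treated 3KR than wild-type MEFs (edgeR FDR 1.50e-11), and NCS raised it by 0.57 in 3KR MEFs (edgeR FDR 8.88e-08). In wild-type MEFs Stc1 was at 11.7 to 13.6 CPM without and 15.0 to 16.3 CPM with NCS. Untreated 3KR MEFs had 19.1 to 20.4 CPM. Htra1, a secreted serine protease, was higher in 3KR by 0.53 without NCS and 0.44 with it (edgeR FDR 5.50e-12 and 1.74e-10). Adam12, a metalloprotease of IGFBP3 and IGFBP5, fell with NCS by 0.21 in wild-type and 0.20 in 3KR MEFs (edgeR FDR 2.54e-04 and 4.81e-04).

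Downstream of the receptor, 25 of 26 listed genes were tested, and 5 were higher and 12 lower in untreated 3KR MEFs. The shares over all tested genes were 22.1% higher and 23.6% lower. Pik3r1, the PI3K regulatory subunit p85-alpha, was lower, with a log2 fold change of -0.40 ± 0.04 (edgeR FDR 1.66e-08). With NCS, Foxo3 rose by 0.40 in wild-type and 0.50 in 3KR MEFs (edgeR FDR 4.14e-08 and 1.43e-09), and Foxo1 by 0.34 in wild-type MEFs (edgeR FDR 7.32e-06). In 3KR MEFs Foxo1 was at 29.8 to 31.2 CPM without and 33.1 to 33.9 CPM with NCS. FoxO factors are transcription factors that AKT keeps out of the nucleus. Irs1, the adaptor that couples the receptor to PI3K, fell by 0.31 in wild-type and 0.68 in 3KR MEFs (edgeR FDR 1.42e-04 and 1.02e-09).

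The difference in response was called for 4 of the 42 genes, against 3.73% of all tested genes. Grb14, an adaptor that inhibits insulin-family receptors, was at 17.7 to 18.8 CPM without and 20.4 to 22.5 CPM with NCS in wild-type MEFs. In 3KR MEFs it was at 11.0 to 12.8 CPM without and 21.3 to 23.5 CPM with NCS. The low untreated 3KR level thus reached the range of treated wild-type cells, and the difference in response was 0.68 ± 0.09 (edgeR FDR 5.73e-05). Irs1 had -0.37 ± 0.08 (FDR 0.00603), Igf2 -0.18 ± 0.04 (FDR 0.00507) and Pappa2 -0.33 ± 0.09 (FDR 0.0307). The Pappa2 call was lost in 7 of 20 alternatives, each with 1 sample left out. With wild-type replicate 3 left out of both treatments, 10 of the 42 genes were called, and 1842 of all genes.

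In the growth hormone receptor pathway, which drives Igf1 in liver, 6 genes were tested, and 3 were higher and 1 lower in untreated 3KR MEFs. The counts were the same after NCS. Over all tested genes, 22.1% were higher and 23.6% lower untreated, and 22.9% higher and 23.6% lower after NCS. The difference in response of the 6 genes ran from -0.07 for Stat5a to 0.11 for Cish on the log2 scale, with edgeR FDRs of 0.540 or above.

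The genes most like each member over the 12 samples were found by the Pearson correlation of log2 CPM among 9594 genes, which share libraries and depth, and the values are descriptions. For Igf1 they were Nrep (r = 0.98), Epha3 (0.97) and Afap1l2 (0.96). For Igf1r they were Mapkapk2 (0.96), Edc4 (0.95) and Pfkfb3 (0.94). Igfbp2 was followed most closely by Apoe, Fn1 and Sema3b (0.99 each), and Igfbp3 by Polr2a, Mest and Bbx (0.98 each). For Igfbp4 they were Cyp26b1 (0.996), Erg (0.995) and Pmp22 (0.995), and for Igfbp7 Ltbp3, Celf2 and Pitpna (0.99 each). A total of 362 genes reached r over 0.95 with Igfbp7, 285 with Igfbp2, 239 with Igfbp4, 65 with Igfbp3, 6 with Igf1 and 2 with Igf1r. Igfbp5, nearest to Kctd20 (0.89), and Igfbp6, nearest to Tspan31 (0.94), had 0 such genes.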

How the data were processed

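RNA from 12 samples of primary MEFs was sequenced from stranded mRNA libraries. The authors deposited raw counts per Ensembl gene, 1 file per sample, not normalized or filtered. The submitters' processing notes name TopHat, HTSeq, DESeq and the build mm9 without versions, and the annotation and the strand setting of the counting are not given in the sources used here. Of 37991 identifiers, 32919 are in GENCODE M21 (GRCm38), which gave symbols, positions and exon lengths and held at least 99.4% of the counts. Because the builds differ, positions are those of GRCm38 and not of the counted annotation.

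After filterByExpr and TMM scaling, all 12 samples entered a single quasi-likelihood model in edgeR 4.0.16 (R 4.3.3) with a coefficient per group. Tests were two-sided F tests with Benjamini-Hochberg adjustment over 15327 genes. Intervals are 95% on 8 residual degrees of freedom. The F tests used more degrees of freedom, because they borrow spread across genes, so the intervals are wider than these tests imply. Floors and intervals cover these samples only, and the floor of 3 counts (0.0663 to 0.0904 CPM) covers counting error. The steps were tested on simulated counts in which 200 genes were changed between the genotypes. The simulation held no change with NCS and no replicate that stood apart. It thus did not check how well changes with NCS or differences in response are found. Promoter windows came from a RefSeq table, and those with unread bases were left out of the shares.

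Deviations of untreated and NCS-treated samples of the same number from their group means correlated at 0.267, 0.234 and 0.468 in wild-type MEFs. In 3KR MEFs they correlated at 0.00102, 0.0502 and 0.00241. The main model held no block for the number, and the alternatives with a block applied it to both genotypes. In wild-type, numbers 1 and 2 also correlated crosswise, at 0.223 and 0.236.

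The 8 genes, the lists, the comparisons and the rules were chosen with earlier results of these data known. Named beside the 8 were, per comparison, the 3 listed IGF axis genes per direction with the lowest p, and per gene the 3 most correlated genes with a mean log2 CPM of at least 3; 1 gene so chosen is not reported here. Stat5a, Cish, Igfbpl1 and the listed genes at or near 0 were named after their values were seen. Alternatives were the size factors of DESeq2 1.42.0, library totals, the Wald test of DESeq2, no filter, a minimum of 10 counts in each sample, a fit of just the 6 samples of a comparison, a block for the replicate number or for the culture, and samples left out.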

Additional observations from a re-analysis of the deposited data

Results flagged for a closer look

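The following responses to NCS differed between the genotypes by the interaction term of edgeR, given as the log2 change in 3KR minus that in wild-type MEFs. Igfbp3 had -0.70, from a fall in 3KR and a change in wild-type MEFs that did not pass the test. Igf1 had -0.46, with all 3 NCS-treated 3KR samples below every other sample. Igfbp2 had -0.27, with a rise in wild-type and a fall in 3KR MEFs. Igfbp4 had -0.25. Among the listed genes of the axis, Grb14 had 0.68, Irs1 had -0.37, Pappa2 had -0.33 and Igf2 had -0.18. Sex and genotype cannot be told apart in any of these.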

How the results depend on the processing

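Of 40 results for the 8 genes, 25 passed the test, 18 of these kept direction and call in every alternative, and none of the 25 turned. Of 28 named results of the wider axis, 27 kept direction and call in every alternative, and none of the 28 turned. Scalings moved 10 of 64 group levels by more than the SD between replicates, by at most 2.33%, and the median of all genes by at most 0.05 on the log2 scale. Values near 0 turned sign without passing the test. Igf1r after NCS between genotypes was 0.0096 under library totals and 0.028 without wild-type replicate 3, and -0.042 to 0.029 with samples left out in turn. Igf1 with NCS in wild-type MEFs was 0.018 without wild-type replicate 3 and -0.056 to 0.011 with samples left out. Igfbp5 with NCS in wild-type MEFs was -0.019 under library totals. Igfbp6 ranged over -0.12 to 0.029 for NCS in wild-type MEFs and -0.13 to 0.020 for the difference in response. Igfbp7 ranged over -0.038 to 0.015 for that difference and was 0.013 with at least 10 counts in every sample. Of the 8 genes, NCS in wild-type MEFs called 1 with only the 6 samples compared, 1 to 3 with samples left out and 5 without wild-type replicate 3. In 3KR MEFs it called 4 to 7 with samples left out. The difference in response called 3 to 9 of the 42 axis genes with samples left out and 10 without wild-type replicate 3. It called 345 to 1159 of all genes with samples left out and 1842 without wild-type replicate 3. With the culture as a replicate block, the difference called 6 of the 8 genes (Igf1r at 0.16, FDR 0.0179, and Igfbp5 at -0.12, FDR 0.0233, were added), 9 axis genes and 1379 of all genes. The same block called Igfbp6 for NCS in 3KR MEFs (-0.09, FDR 0.00869). The number as a replicate block called Igfbp6 between genotypes after NCS (-0.11, FDR 0.0320). The block changed no other call of the 8 genes apart from that of Igfbp3 in wild-type MEFs with the culture block. The causes were not tested. The culture block cannot be had for a comparison of genotypes, and the 6-sample fit not for the difference.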
